A study of Mus musculus with 2 samples.

Results

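Neurog3 (neurogenin 3, also written Ngn3, chromosome 10) was followed well by well in mouse small intestinal organoids, as 1 gene of the 16943 nuclear genes with a row on at least 1 of 2 plates. The cells came from jejunal and ileal organoids of the genotype Neurog3-RFP hom and were sorted singly for red fluorescence of the Ngn3 reporter, after 48 h with ISX-9 on 1 plate and after 48 h with the solvent DMSO on the other. All cells of both plates therefore carried the reporter and were sorted as positive for it, and the sources used here do not say how the reporter was built. ISX-9 (isoxazole 9) is a small molecule known as an inducer of neuronal differentiation. The level of Neurog3 was taken from its own row in CPM, its reads scaled to a common total of nuclear reads per well, where nuclear reads are those outside spike-ins and mitochondrial genes. Wells with at least 2000 nuclear reads and at least 500 nuclear genes were kept, which left 290 of 384 wells on the ISX-9 plate and 300 of 384 on the DMSO plate.

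Neurog3 encodes a basic helix-loop-helix transcription factor of the proneural family, which binds DNA at E-boxes together with E proteins such as those encoded by Tcf3, Tcf4 and Tcf12. In the intestinal crypt it is expressed briefly in precursors of enteroendocrine cells, where Notch signalling through Hes1 restrains it, and mice lacking it form no intestinal enteroendocrine cells. It switches on a set of further factors, among them Neurod1, Insm1, Pax4 and Nkx2-2, and its own mRNA fades before hormones and granule proteins are made. A fluorescent reporter protein outlasts the mRNA, so a reporter-positive cell may hold much, little or no Neurog3 mRNA.

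To show the regulatory sequence of the gene itself and of 2 genes whose level followed it in these wells, the 250 bases before the RefSeq start of Neurog3 (GRCm38.p6, chr10:62132840-62133089, plus strand), Neurod2 (chr11:98329646-98329895, minus strand) and Nkx2-2 (chr2:147186403-147186652, minus strand) are printed 5′ to 3′, with every E-box, CANNTG, in capitals. The motif reads the same on both strands.
Neurog3: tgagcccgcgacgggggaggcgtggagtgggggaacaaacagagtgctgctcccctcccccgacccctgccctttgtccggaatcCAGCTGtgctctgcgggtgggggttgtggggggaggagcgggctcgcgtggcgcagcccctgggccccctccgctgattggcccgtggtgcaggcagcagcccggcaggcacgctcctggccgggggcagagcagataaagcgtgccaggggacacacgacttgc
Neurod2: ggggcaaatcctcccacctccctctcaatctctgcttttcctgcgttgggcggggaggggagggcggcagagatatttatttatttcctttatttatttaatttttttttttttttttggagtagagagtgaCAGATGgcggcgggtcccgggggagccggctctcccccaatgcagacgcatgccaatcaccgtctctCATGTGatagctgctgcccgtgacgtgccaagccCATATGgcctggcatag
Nkx2-2: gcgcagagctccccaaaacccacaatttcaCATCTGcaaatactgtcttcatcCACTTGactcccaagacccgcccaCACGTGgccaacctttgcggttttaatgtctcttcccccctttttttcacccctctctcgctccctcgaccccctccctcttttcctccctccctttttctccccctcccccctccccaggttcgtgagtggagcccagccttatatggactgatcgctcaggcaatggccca
The Neurog3 window held 1 match, which began 165 bases before the start. The Neurod2 window held 3, at 118, 51 and 17 bases, and the Nkx2-2 window held 3, at 220, 197 and 173 bases. The form CAGATG, or CATCTG on the other strand, stood once in the Neurod2 window and once in the Nkx2-2 window. Of all 27025 promoter windows of this length, 66.1% held CANNTG and 14.5% held CAGATG or CATCTG. A match to CANNTG in a window is therefore common, and the narrower form is less so. Neurod2 and Nkx2-2 were picked from the genes that followed Neurog3 and do not stand for the others, for which no share with either form was computed.

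There was 1 library per treatment. Because wells share their library, the 2 treatments were not tested against each other, and intervals cover the sampling of wells or the counting of reads on 1 plate only. The deposited values are reads and not molecules. Kept wells had a median of 22509.5 nuclear reads (2007 to 326339) and 2981 genes on the ISX-9 plate, and 26340 reads (2295 to 489134) and 2629.5 genes on the DMSO plate. The same 384 well positions, each with its own barcode, were used on both plates. Doublets were not called.

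Neurog3 was spread over a very wide range on both plates, and the plates differed in how many wells had no read and how many were high. On the ISX-9 plate the lowest well had 0 CPM, the median was 175.5 CPM, the upper quartile 3858 CPM and the highest well 30521 CPM. On the DMSO plate the lowest well and the median were both 0 CPM, the upper quartile was 161.3 CPM and the highest well had 35114 CPM. The ranges overlapped over their whole length, and the well with the most Neurog3 was a DMSO well. At least 1 read of Neurog3 came from 211 of 290 ISX-9 wells (72.8%, exact Clopper-Pearson 95% interval 67.2 to 77.8) and from 147 of 300 DMSO wells (49%, 43.2 to 54.8). Among wells with a read, the median level was 989.6 CPM on the ISX-9 plate and 191.8 CPM on the DMSO plate.

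**Figure D1:**
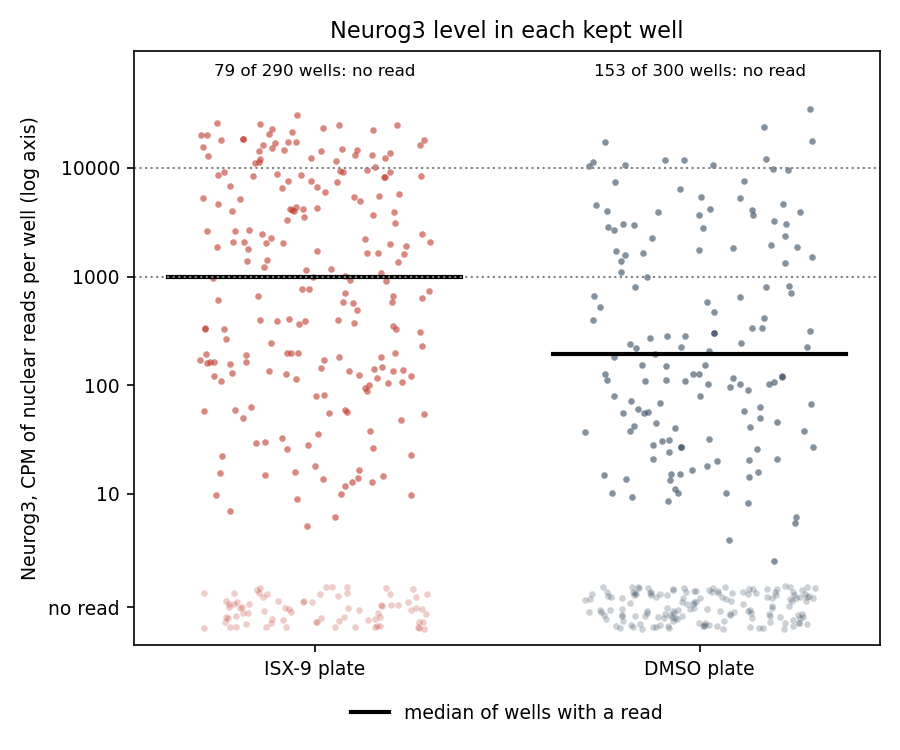
Each point is 1 kept well. The y axis is Neurog3 in CPM on a log axis, wells without a read are set apart at the bottom, the black bars are the medians of wells with a read (989.6 CPM on the ISX-9 plate and 191.8 CPM on the DMSO plate), and dotted lines mark 1000 and 10000 CPM. The points spread without a clear gap on either plate, and points above 1000 CPM are denser on the ISX-9 plate.

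A single read is a weak sign of expression in these data. Exactly 1 Neurog3 read was found in 47 ISX-9 wells and 54 DMSO wells. Wells with at least 1000 CPM of Muc2, the secreted mucin of goblet cells, which are not known for Neurog3 expression once mature, held a Neurog3 read in 24 of 43 ISX-9 wells (55.8%, median depth 11841 reads) and in 36 of 84 DMSO wells (42.9%, median depth 32079.5 reads). The share of all DMSO wells with a read, 49%, is thus little above that in Muc2-high wells. On the ISX-9 plate the shares were further apart, at 72.8% of all wells against 55.8%. Muc2-high wells were also sorted as positive for the reporter, so they are not a control known to lack Neurog3. The level is used in what follows. At 1000 CPM or more, Neurog3 stood in 6 of the 43 Muc2-high ISX-9 wells (14%) and in 3 of the 84 Muc2-high DMSO wells (3.57%). With each well thinned to 2000 reads, a read remained in 129 of the 290 ISX-9 wells (44.5%, 38.7 to 50.4) and in 78 of the 300 DMSO wells (26%, 21.1 to 31.4). Thinned to 10000 reads, among wells that deep, 121 of 196 wells of the ISX-9 plate (61.7%) and 75 of 215 of the DMSO plate (34.9%) kept a read.

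The wells were divided at 1000 and 10000 CPM. On the ISX-9 plate 79 wells had no read (27.2%), 106 were below 1000 CPM (36.6%), 66 were between 1000 and 10000 CPM (22.8%) and 39 were at 10000 CPM or more (13.4%, 9.74 to 17.9). On the DMSO plate 153 wells had no read (51%), 100 were below 1000 CPM (33.3%), 36 were between 1000 and 10000 CPM (12%) and 11 were at 10000 CPM or more (3.67%, 1.84 to 6.47). The share below 1000 CPM was close on both plates, and the difference lay in the wells without a read and in the wells above 1000 CPM. At 1000 CPM or more there were 105 ISX-9 wells (36.2%, 30.7 to 42.03) and 47 DMSO wells (15.7%, 11.7 to 20.3). Among these, the median level was 7526 CPM on the ISX-9 plate and 3964 CPM on the DMSO plate.

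**Figure D2:**
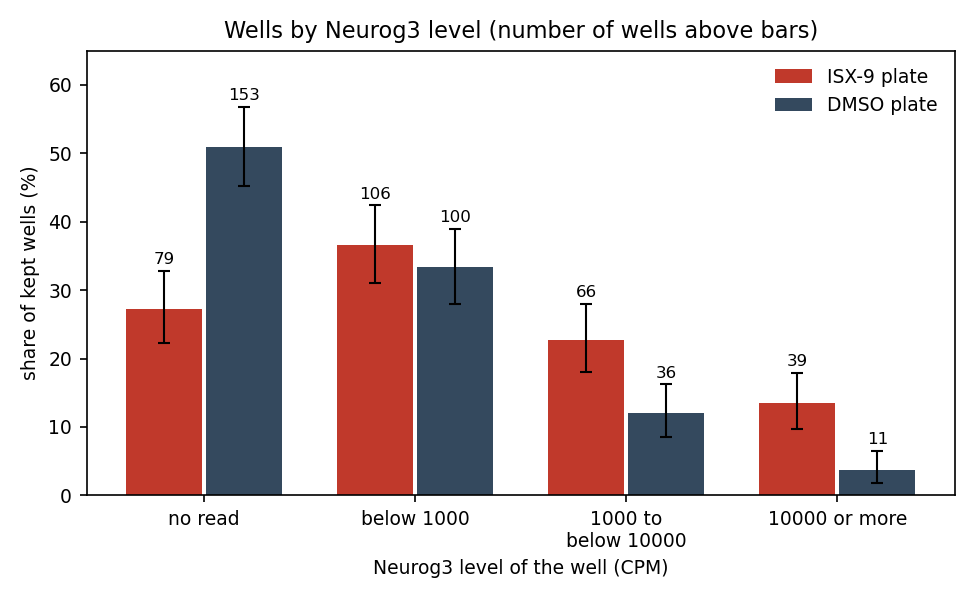
Bars give the share of kept wells, in %, at each level of Neurog3, with exact 95% Clopper-Pearson intervals as error bars and the number of wells above them. The 2 upper classes hold 66 and 39 wells on the ISX-9 plate and 36 and 11 wells on the DMSO plate.

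Few wells carried most of the Neurog3 reads. Wells at 10000 CPM or more held 68.2% of the Neurog3 reads of the ISX-9 plate and 33.6% of those of the DMSO plate, and wells between 1000 and 10000 CPM held 29.4% on the ISX-9 plate and 56.9% on the DMSO plate. Wells below 1000 CPM had a median of 2 Neurog3 reads on the ISX-9 plate and 1 on the DMSO plate. Pooled over kept wells, the level was 2990 CPM on the ISX-9 plate (exact Poisson 95% interval 2959 to 3021) and 679 CPM on the DMSO plate (665 to 692), which weights wells by depth. The mean of single-well levels, which does not, was 3409 CPM on the ISX-9 plate and 1065 CPM on the DMSO plate. The 10 wells with the most Neurog3 reads supplied 37.6% of them on the ISX-9 plate and 53.8% on the DMSO plate.

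Depth did not order the wells in the same way as Neurog3. Over kept wells the Spearman correlation of Neurog3 with nuclear reads was 0.06 on the ISX-9 plate (n = 290) and 0.08 on the DMSO plate (n = 300), as a description of 1 library each. From no read to the highest class, the median depth was 11841, 34500, 21277.5 and 30401 reads on the ISX-9 plate, and 18683, 39271.5, 26666 and 10725 reads on the DMSO plate. Spike-in reads per nuclear reads had medians of 17.4, 7.24, 11.8 and 8.15% over the same ISX-9 classes and 10.02, 6.03, 11.4 and 20.3% over the DMSO classes. The 11 highest DMSO wells were therefore shallow beside the 39 highest ISX-9 wells, and depth was held in the correlations below, with counts from wells thinned to 2000 reads given beside the calls.

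Genes that followed Neurog3 within a plate were described by a Spearman correlation over kept wells with the nuclear reads per well held (partial rho). A gene was called rising with Neurog3 at 0.3 or more and falling at -0.3 or less. The test took in genes that were read in 20% or more of the kept wells and had 200 reads or more. On the ISX-9 plate 117 of 6491 genes rose with Neurog3 (1.8%) and 45 fell (0.693%). Of 6092 genes on the DMSO plate, 12 rose (0.197%) and 0 fell (0%). No p-value belongs to these counts, which share all wells of a library. The counts are not set against each other, because 105 ISX-9 wells but 47 DMSO wells reached 1000 CPM, and the part of that difference in the counts was not tested. After each well was thinned to 2000 reads, 38 of the 117 ISX-9 genes and 5 of the 12 DMSO genes were still called, and all 117 and all 12 stayed positive. At a limit of 0.2, 363 genes rose and 235 fell on the ISX-9 plate, and 99 rose and 8 fell on the DMSO plate.

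The genes that followed Neurog3 most closely included transcription factors of early endocrine cells. On the ISX-9 plate the highest partial rho was that of Epb4.2, which encodes the membrane skeleton protein 4.2 of red blood cells (0.60). It was followed by Sox4, an HMG-box transcription factor (0.56), and Insm1, a zinc finger factor of endocrine and neuronal precursors (0.55). Ttll6, a tubulin polyglutamylase gene, and Gadd45a, a growth arrest and DNA damage gene, both had 0.54, and Smarcd2, a subunit of the SWI/SNF chromatin remodelling complex, had 0.53. Neurod2, a bHLH factor of neurons, and Megf11, a cell surface protein with EGF-like repeats, had 0.52. Others of the top 15 were Trp53i11 (0.51), Olfm1 (0.49), the homeodomain factor gene Nkx2-2 (0.49), the kinase gene Dmpk (0.49), the cytoskeletal linker gene Dst (0.49) and Mrfap1 (0.48). Of these 15, 13 were tested on the DMSO plate, and their partial rho was between 0.11 for Mrfap1 and 0.40 for Neurod2.

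Neurod2 was highest on the DMSO plate (0.40). It was followed by Dst (0.35), the chromatin remodeller gene Chd7 (0.34), Pclo, a scaffold of presynaptic terminals (0.34), Insm1 (0.34), Tenm4, a teneurin (0.33), Cplx2, a complexin of regulated exocytosis (0.32), and Runx1t1, a transcriptional corepressor (0.32). Pisd-ps1, a pseudogene (0.31), Neurod1, a bHLH factor of endocrine cells (0.30), the corepressor gene Rcor2 (0.30) and Kcnb2, a voltage-gated potassium channel gene (0.30), were also called. Reads of Pisd-ps1 may be shared with related copies. Vwa5b2, the HMG-box factor gene Tox3 and Gfra3, a receptor of the GDNF family, were next and just below the limit, at 0.30, 0.30 and 0.29. Sox4 had 0.29 there.

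Over the 5790 genes tested on both plates, 7 rose on both: Insm1, Neurod2, Dst, Cplx2, Chd7, Rcor2 and Kcnb2. They make up 7.45% of the 94 ISX-9 genes and 58.3% of the 12 DMSO genes called among them. The plates share no wells. All 94 ISX-9 genes that rose had a positive partial rho on the DMSO plate (0.03 to 0.40, median 0.18), against 63.6% of all genes tested on both (median 0.03). All 12 DMSO genes were positive on the ISX-9 plate, between 0.14 for Tenm4 and 0.55 for Insm1. Of the 44 ISX-9 genes that fell, 39 were negative on the DMSO plate, against 36.4% of all genes. The exceptions were Cdkn1a, Fdps, Hk1, Aldoc and 2200002D01Rik, which stood between 0.00 and 0.09 there.

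**Figure D3:**
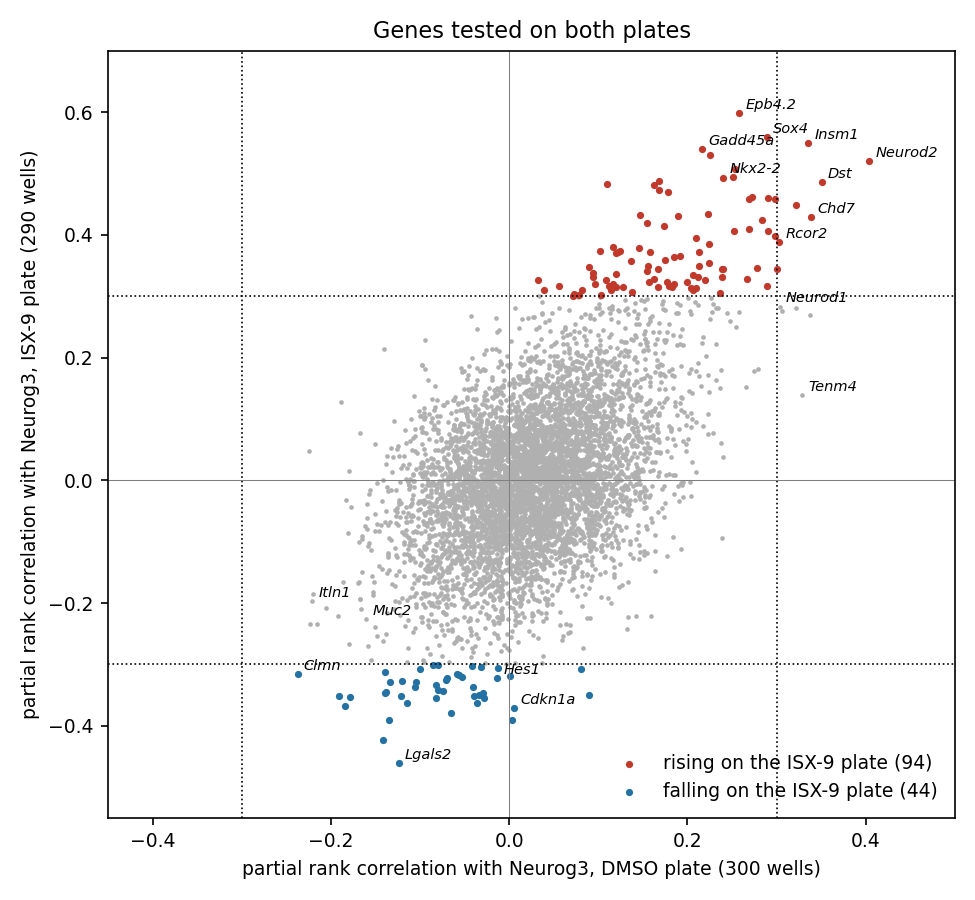
Each point is 1 of the 5790 genes tested on both plates, with its partial rank correlation with Neurog3 over 290 ISX-9 wells (y axis) and over 300 DMSO wells (x axis). Dotted lines mark 0.3 and -0.3. The 94 genes that rose on the ISX-9 plate (red) all lie right of 0, and 39 of the 44 that fell there (blue) lie left of it.

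For Insm1, Neurod2, Sox4, Nkx2-2 and Pax4 the level stepped up above 1000 CPM of Neurog3, while wells below 1000 CPM were at or near the level of wells without a read. Insm1, pooled over wells from no Neurog3 read to the highest class, stood at 121, 143, 743 and 1431 CPM on the ISX-9 plate and at 89.3, 111, 427 and 598 CPM on the DMSO plate. In the 39 highest ISX-9 wells it ranged from 0 to 3178 CPM with a median of 1071 CPM, and in the 11 highest DMSO wells from 0 to 1466 CPM with a median of 186 CPM. The DMSO wells of that class all lay within the lower part of the ISX-9 range. Neurod2 stood at 49.3, 39.4, 247 and 554 CPM on the ISX-9 plate, and at 16.9, 23.03, 248 and 397 CPM on the DMSO plate. Without its top well the last DMSO value was 218 CPM.

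Sox4 stood at 189, 179.96, 796 and 1548 CPM on the ISX-9 plate and at 246, 170.01, 583 and 1951 CPM on the DMSO plate. Every well of the highest class held Sox4, from 278 to 11358 CPM (median 1315) on the ISX-9 plate and from 654 to 4663 CPM (median 1939) on the DMSO plate. Nkx2-2, whose promoter window is printed above, stood at 105, 98.6, 549.7 and 702 CPM on the ISX-9 plate and at 122, 98.7, 496 and 554 CPM on the DMSO plate. By pooled CPM, the step between the classes below and above 1000 CPM was thus of like size for Nkx2-2 on both plates. By the median well it was not shown to be alike. Wells at 1000 CPM or more of Neurog3 had median Nkx2-2 of 580 CPM on the ISX-9 plate and 264 CPM on the DMSO plate. Pax4, a paired homeodomain factor of early endocrine cells, stood at 101, 71.8, 448 and 604 CPM on the ISX-9 plate and at 10.8, 6.58, 235 and 549.9 CPM on the DMSO plate. In DMSO wells below 1000 CPM of Neurog3 it was nearly absent, with reads in 4 of 100 wells, and it failed the filter for testing on that plate. Without the top well of each class, the values of Pax4 in the upper DMSO classes were 127 and 276 CPM.

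Gadd45a stood at 189, 288, 1192 and 3411 CPM on the ISX-9 plate and 159.9, 158, 687 and 1606 CPM on the DMSO plate. Epb4.2 stood at 21.3, 38.2, 403 and 1319 CPM on the ISX-9 plate and at 21.4, 16.2, 212 and 594 CPM on the DMSO plate. Chd7 stood at 237, 179, 511 and 929 CPM on the ISX-9 plate and 191, 144, 445 and 978 CPM on the DMSO plate. Neurod1 differed less between classes, at 636, 404, 979 and 1576 CPM on the ISX-9 plate and 345, 276, 958 and 1143 CPM on the DMSO plate. Its partial rho was 0.28 on the ISX-9 plate and 0.30 on the DMSO plate, and it was well above 0 in wells without any Neurog3.

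**Figure D4:**
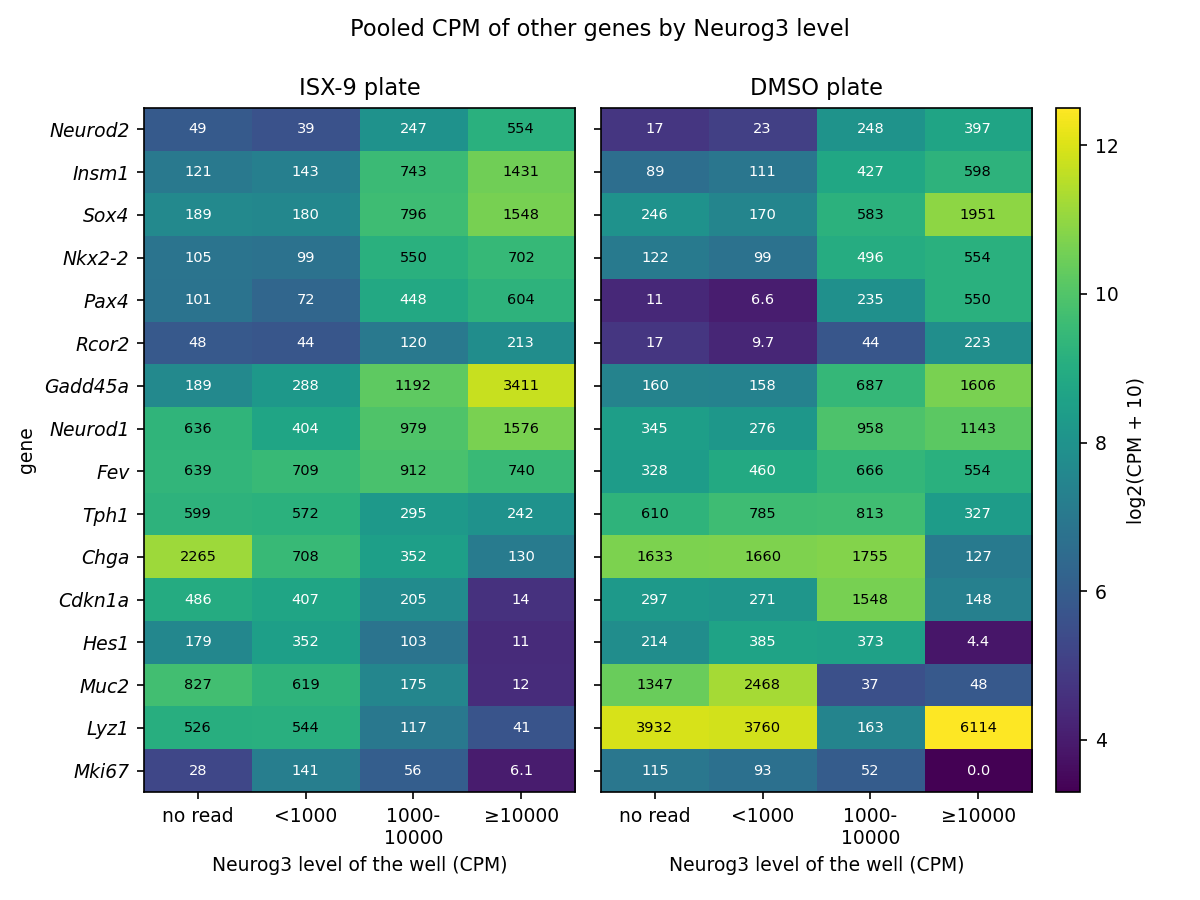
Each cell is the pooled CPM of 1 gene (rows) over the wells of 1 level of Neurog3 (columns, in CPM), printed in the cell and coloured by log2(CPM + 10), for the ISX-9 plate on the left and the DMSO plate on the right. Insm1, Sox4, Neurod2 and Gadd45a step up at 1000 CPM of Neurog3 on both plates, and Hes1 and Mki67 are lowest in the last column on both.

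Seen from the other side, wells with much of an early factor usually held much Neurog3. Of wells with at least 1000 CPM of Insm1, 42 of 48 on the ISX-9 plate (87.5%) and 7 of 11 on the DMSO plate (63.6%) had at least 1000 CPM of Neurog3. For Pax4 these counts were 25 of 30 on the ISX-9 plate (83.3%) and 5 of 5 on the DMSO plate. For Gadd45a they were 55 of 65 on the ISX-9 plate (84.6%) and 13 of 20 on the DMSO plate (65%). For Neurod1 they were 46 of 88 on the ISX-9 plate (52.3%) and 20 of 60 on the DMSO plate (33.3%), so many Neurod1-high wells were low in Neurog3 on both plates. The shares over all kept wells, 36.2% on the ISX-9 plate and 15.7% on the DMSO plate, are the background to these counts.

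The list of Neurog3 targets and early endocrine factors had 16 members, of which 15 were tested on the ISX-9 plate and 14 on the DMSO plate. On the ISX-9 plate 10 of the 15 rose with Neurog3, 0 fell and the median partial rho was 0.46, beside 0.00 over all genes. Of the 14 on the DMSO plate 5 rose, 0 fell and the median was 0.28, beside 0.02 over all genes. The shares over all tested genes are the background to this and the later list counts. They were 1.8% rising and 0.693% falling on the ISX-9 plate, and 0.197% rising and 0% falling on the DMSO plate. The ISX-9 members that rose were Sox4, Insm1, Smarcd2, Neurod2, Nkx2-2, Pax4 (0.47), the corepressor gene Cbfa2t3 (0.47), Amotl2 (0.46), Rcor2 (0.39) and the winged-helix factor gene Rfx6 (0.35). The DMSO members that rose were Neurod2, Insm1, Runx1t1, Neurod1 and Rcor2. Gfi1 failed the filter on both plates. Summed per well, the list had medians of 2337, 1853, 7079 and 11615 CPM from no Neurog3 to the highest class on the ISX-9 plate, and of 1270.4, 1331, 6468 and 11672 CPM on the DMSO plate.

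Factors of later endocrine cells followed Neurog3 less. Of 5 tested on each plate, 2 rose on the ISX-9 plate, Tox3 (0.46) and Rfx3 (0.33), and 0 on the DMSO plate. The list medians were 0.16 on the ISX-9 plate and 0.17 on the DMSO plate. Fev, an ETS factor of serotonin cells, stood at 639, 709, 912 and 740.3 CPM over the ISX-9 classes and at 328, 460.1, 666 and 554 CPM over the DMSO classes, with a partial rho of 0.15 on the ISX-9 plate and 0.17 on the DMSO plate. Among genes of granules and exocytosis, 2 of 14 rose on the ISX-9 plate, among them Cplx2 (0.45), and 1 of 13 on the DMSO plate, Cplx2. The list medians were 0.02 on the ISX-9 plate and 0.10 on the DMSO plate. Chga, the granule protein chromogranin A, stood at 2265, 708, 352 and 129.8 CPM on the ISX-9 plate and 1633, 1660.5, 1755 and 127 CPM on the DMSO plate. The DMSO value between 1000 and 10000 CPM of Neurog3 was 904 CPM without its top well. Single wells also weighed in the ISX-9 wells without Neurog3 (1323 CPM without the top well) and the DMSO wells below 1000 CPM (1019 CPM). In the highest class Chga was low on both plates, also without the top well (78.2 CPM on the ISX-9 plate and 78.6 CPM on the DMSO plate), with reads in 17 of the 39 ISX-9 wells and in 6 of the 11 from DMSO.

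Among tested markers of hormone cells, only Cacna1a was called with Neurog3, and only on the ISX-9 plate. Of the enterochromaffin list, 1 of 8 tested members rose on the ISX-9 plate, the calcium channel gene Cacna1a (0.32), and 0 of 9 on the DMSO plate, where Cacna1a had 0.29. The list medians were -0.07 on the ISX-9 plate and 0.13 on the DMSO plate. Tph1, the gene for the rate-limiting enzyme of gut serotonin, stood at 599, 572, 295 and 242 CPM on the ISX-9 plate and at 609.8, 785, 813 and 327 CPM on the DMSO plate, where the last value was 96.1 CPM without its top well. At least 1000 CPM of Tph1 was reached in 15 of 105 ISX-9 wells with at least 1000 CPM of Neurog3 (14.3%) and in 13 of 47 such DMSO wells (27.7%). In wells without Neurog3 it was reached in 19 of 79 on the ISX-9 plate (24.1%) and 25 of 153 on the DMSO plate (16.3%), so the order was opposite on the 2 plates. That difference in order was not tested. Peptide hormone genes had medians of -0.07 over 3 tested members on the ISX-9 plate and -0.11 over 4 on the DMSO plate, with 0 called.

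**Figure D5:**
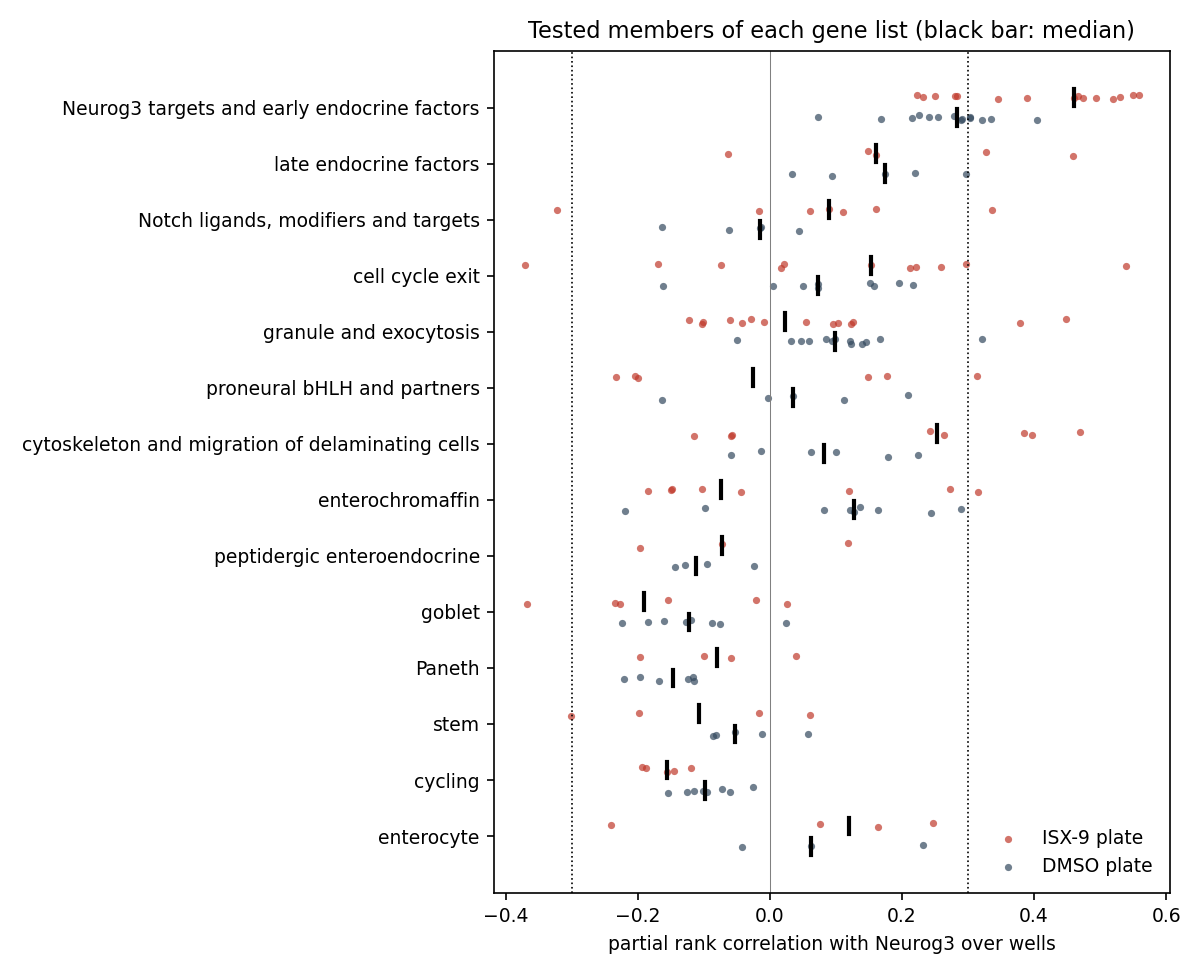
Points are the tested members of each gene list at their partial rank correlation with Neurog3 (x axis), on the ISX-9 plate (red, upper row) and the DMSO plate (dark blue, lower row), black bars are list medians and dotted lines mark 0.3 and -0.3. The early endocrine factors have the highest median on both plates, 0.46 on the ISX-9 plate and 0.28 on the DMSO plate, and every tested member of that list lies right of 0.

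Genes of the Notch pathway were called on the ISX-9 plate only, where 1.8% of all tested genes rose and 0.693% fell. Of 7 tested on the ISX-9 plate, Mfng, a glycosyltransferase that modifies Notch receptors, rose (0.34) and Hes1, the Notch target that represses proneural genes, fell (-0.32), and of 5 tested on the DMSO plate 0 were called. In ISX-9 wells thinned to 2000 reads neither call held, with Mfng at 0.12 and Hes1 at -0.27. Hes1 stood at 179, 352, 103 and 11.4 CPM on the ISX-9 plate, with reads in 4 of the 39 highest wells. In DMSO wells it stood at 214, 385, 373 and 4.36 CPM, with reads in 1 of the 11 highest wells, and the value between 1000 and 10000 CPM of Neurog3 was 184 CPM without its top well. Hes1 was thus near 0 in the wells with the most Neurog3 on both plates, while its partial rho on the DMSO plate was -0.01. The ligand genes were near 0, with Dll1 at 0.09 and Dll4 at 0.11 on the ISX-9 plate, and Dll1 at -0.06 and Dll4 at -0.02 on the DMSO plate. Atoh1, the bHLH factor of secretory precursors, had 0 reads in the highest class of both plates, and stood at 57.5, 70.3 and 18.9 CPM in the lower ISX-9 classes and at 154.2, 154.2 and 2.16 CPM in the lower DMSO classes.

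Of the proneural partners, Tcf4 rose on the ISX-9 plate (0.31), where 6 were tested, and had 0.21 on the DMSO plate, where 0 of 5 were called. The inhibitors of bHLH factors Id1 (-0.23), Id2 (-0.20) and Id3 (-0.20) were all negative on the ISX-9 plate without reaching the limit, and Id2, the only one of them tested on the DMSO plate, had 0.00 there. The sister genes were nearly without reads, since Neurog2 had 2 reads in 1 ISX-9 well and Neurog1 had no row. Tspan15, which neighbours Neurog3 on chromosome 10, had a partial rho of -0.04 on both plates, at 74.4 CPM on the ISX-9 plate and 52.5 CPM on the DMSO plate.

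Among genes of cell cycle exit, Gadd45a rose and Cdkn1a fell on the ISX-9 plate (-0.37), of 11 tested, and 0 of 9 were called on the DMSO plate. Cdkn1a, the cell cycle inhibitor p21, stood at 486, 407, 205 and 14.4 CPM on the ISX-9 plate. On the DMSO plate it stood at 297, 271, 1548 and 148 CPM, with a partial rho of 0.01, and the value between 1000 and 10000 CPM of Neurog3 was 887 CPM without its top well. The course of Cdkn1a thus differed between the plates, and that difference was not tested. The cytoskeletal list had 3 of 8 tested members that rose on the ISX-9 plate, Marcks (0.47), Tubb3 (0.40) and Marcksl1 (0.39), and 0 of 6 on the DMSO plate, where Marcks had 0.18 and Marcksl1 0.22.

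The calls of genes that fell with Neurog3 on the ISX-9 plate did not hold in thinned wells. In wells thinned to 2000 reads 0 of the 45 were still called, and 14 of the 45 were called where depth was not held, while all 45 stayed negative under both. Among them Lgals2, a galectin gene, was lowest (-0.46, and -0.29 in thinned wells). Others among the lowest were the tight junction gene Cldn15 (-0.42), the isoprenoid synthesis gene Fdps (-0.39), the glycosyltransferase gene B4galnt2 (-0.39), the crypt factor gene Klf5 (-0.38), Cdkn1a (-0.37), the goblet cell disulfide isomerase gene Agr2 (-0.37), Rnf43, a ubiquitin ligase that removes Wnt receptors (-0.36), and Lpcat4 (-0.35). In thinned wells the values of Cldn15 and Rnf43 were both -0.12 and that of Fdps was -0.19. Lgals2 stood at 1076, 960.4, 439 and 139 CPM on the ISX-9 plate and at 601, 703, 325 and 87.3 CPM on the DMSO plate, where its partial rho was -0.12. Without the top well of the class, the last DMSO value was 53.8 CPM. Cldn15 had 0 reads in the 39 highest ISX-9 wells and reads in 1 of the 11 highest DMSO wells. Klf5 stood at 501, 601, 402 and 72.1 CPM on the ISX-9 plate and 455, 542, 468 and 192 CPM on the DMSO plate, the last of which was 106 CPM without its top well. The lowest on the DMSO plate were Clmn (-0.24), Smim14 (-0.22), the goblet and secretory genes Spink4 (-0.22) and Reg4 (-0.22) and the lectin gene Itln1 (-0.22), none of which reached the limit.

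Markers of other cell types were present in the sorted wells, and their course over the classes of Neurog3 differed between lists. Of the goblet list, 1 of 6 tested members, Agr2, fell on the ISX-9 plate and 0 of 8 on the DMSO plate. The list medians were -0.19 on the ISX-9 plate and -0.12 on the DMSO plate. The goblet genes summed to 6098, 4566, 2805 and 1929 CPM over the ISX-9 classes and to 9255, 12419.5, 681 and 5918 CPM over the DMSO classes, the last of which was 3921 CPM without its top well. By the median well their sums were 2199.5, 982, 1528 and 1881 CPM on the ISX-9 plate and 3289, 5829.5, 641 and 1639 CPM on the DMSO plate, so the typical ISX-9 well did not lose goblet reads with each step of Neurog3. Muc2 stood at 827, 619, 175 and 12.1 CPM on the ISX-9 plate and at 1347, 2468, 36.7 and 48.0 CPM on the DMSO plate, where the value below 1000 CPM of Neurog3 was 1617 CPM without its top well. Paneth markers had medians of -0.08 over 4 tested members on the ISX-9 plate and -0.15 over 6 on the DMSO plate, with 0 called. Their summed level was 4797, 3081, 1797 and 989 CPM on the ISX-9 plate and 13989.9, 13006, 1886 and 14707 CPM on the DMSO plate. The last value was 2310.1 CPM without the deepest well of that class (50367 reads), which held 97.4% of the reads of the Paneth lysozyme gene Lyz1 in the highest DMSO class. Whether that well held more than 1 cell was not tested.

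The pooled sums of dividing and stem cell genes were lowest in the highest class of Neurog3 on both plates, which did not hold for the median well of the stem cell list. The 12 cycling genes summed to 1068, 2113, 1200.4 and 138 CPM over the ISX-9 classes and to 1511, 1361, 1275 and 69.8 CPM over the DMSO classes, where 9 of the 12 had no read in the highest class. Of those tested, 0 of 5 on the ISX-9 plate and 0 of 8 on the DMSO plate were called, and every value was negative. The medians were -0.16 on the ISX-9 plate and -0.10 on the DMSO plate. Mki67, a proliferation marker, had 6.07 CPM in the highest ISX-9 class and 0 reads in the highest DMSO class. Of the stem cell list 1 of 4 tested members fell on the ISX-9 plate, Slc12a2 (-0.30), and 0 of 5 on the DMSO plate. Its members summed to 898, 1299, 767 and 213 CPM over the ISX-9 classes and to 1501, 1598, 1977 and 415 CPM over the DMSO classes. By the median well these sums were 146.6, 454.5, 153.8 and 150.8 CPM on the ISX-9 plate and 366.6, 736.7, 293.9 and 405.5 CPM on the DMSO plate. Enterocyte genes had medians of 0.12 over 4 tested members on the ISX-9 plate and 0.06 over 3 on the DMSO plate. They summed to 628, 667, 825 and 1595 CPM over the ISX-9 classes and to 589, 666, 884 and 1126 CPM over the DMSO classes, so they were higher with more Neurog3 on both plates. No tuft and no immune or mesenchymal marker passed the filter, and in the highest class tuft markers summed to 1.52 CPM and immune and mesenchymal markers to 89.6 CPM on the ISX-9 plate (30.6 CPM without 1 well), with 0 reads of either on the DMSO plate. The part of these cells in the correlations was not tested.

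Wells of both plates with at least 1000 CPM of Neurog3 were also set side by side, 105 ISX-9 wells and 47 DMSO wells. Their depths were close, with medians of 28136 reads in the ISX-9 wells and 24056 in the DMSO wells, but their Neurog3 levels were not equal, as given above. Over the 6491 genes tested on the ISX-9 plate, 378 (5.82%) were at least 2-fold higher in the ISX-9 wells and 163 (2.51%) at least 2-fold lower, as ratios of CPM + 5 (median log2 ratio 0.06). Genes entered this set by their reads on the ISX-9 plate, so genes read mainly on the DMSO plate were left out. The counts of higher and lower genes are therefore not set against each other. Of the 117 genes that rose with Neurog3 on the ISX-9 plate, 41 were at least 2-fold higher, 0 at least 2-fold lower, and the median log2 ratio was 0.79. These 117 were chosen on the ISX-9 wells, so their count is a description and not an independent result.

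Megf11 had the highest ratio of these 117 genes, at 156 CPM (exact Poisson 95% interval 144 to 169.7) with reads in 52 of the 105 ISX-9 wells. In the DMSO wells it stood at 2.40 CPM (0.779 to 5.60) with reads in 2 of 47, a log2 ratio of 4.45. Mfng stood at 42.4 CPM in the ISX-9 wells against 2.40 CPM in the DMSO wells (log2 ratio 2.68). Tubb3, a neuronal tubulin gene, stood at 191 CPM in the ISX-9 wells against 32.6 CPM in the DMSO wells (2.38). Megf11, Mfng and Tubb3 followed Neurog3 on the ISX-9 plate and failed the filter for testing on the DMSO plate. They were thus chosen by their ISX-9 reads, so their low DMSO levels are a description and not an independent result. Median Neurog3 was also lower in these DMSO wells, at 3964 CPM against 7526 CPM in the ISX-9 wells. Hpca, a neuronal calcium sensor gene (ISX-9 219 CPM, DMSO 8.64 CPM, log2 ratio 4.04), and Rbfox3, a neuronal splicing factor gene (ISX-9 142 CPM, DMSO 4.32 CPM, 3.97), were picked after their values were seen.

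For some other genes that followed Neurog3 the pooled CPM of these wells was close on both plates. The median well was higher on the ISX-9 plate for Marcks, Marcksl1 and Nkx2-2, but not for all such genes. Marcks, a substrate of protein kinase C at the membrane, stood at 532 CPM in the ISX-9 wells against 529.9 CPM in the DMSO wells (log2 ratio 0.01), and the related Marcksl1 at 1225 CPM in the ISX-9 wells against 1147 CPM in the DMSO wells (0.09). The median well had 455 CPM of Marcks and 973 CPM of Marcksl1 among the ISX-9 wells, against 248 CPM of Marcks and 452 CPM of Marcksl1 among the DMSO wells. Kcnb2 stood at 167 CPM in the ISX-9 wells against 149 CPM in the DMSO wells (0.16), with close medians of 94.2 CPM and 84.6 CPM. Cacna1a stood at 827 CPM in the ISX-9 wells against 963 CPM in the DMSO wells (-0.22). Its median well was lower on the ISX-9 plate, at 784 CPM against 1099 CPM on the DMSO plate. Nkx2-2 stood at 604 CPM in the ISX-9 wells against 502 CPM in the DMSO wells (0.26), with medians of 580.1 CPM in the ISX-9 wells and 264 CPM in the DMSO wells. Without the top well of each plate Nkx2-2 was 606 CPM in the ISX-9 wells and 416 CPM in the DMSO wells. Insm1, at 988 CPM in the ISX-9 wells against 446 CPM in the DMSO wells (1.14), lay between these and Megf11 in its pooled ratio. Each of these is a difference between 2 libraries, without a replicate check.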

How the data were processed

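Single cells were sorted into 384-well plates and profiled by SORT-seq with CEL-Seq2 chemistry, per the labels' protocols. For each plate the authors deposited raw counts of reads by gene and well, which were used as deposited. They are reads and not molecules, and the molecular barcode has 4 bases. The submitters' processing notes name BWA and hg19, while the rows carry mouse symbols, so genes are given by chromosome only, and the counting rule and strand are not given in the sources used here. Promoter sequences are RefSeq's (GRCm38.p6). No column was left unused.

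CPM, partial Spearman correlations and exact intervals were computed with Python 3.11.15, numpy 2.4.6, pandas 2.3.3 and scipy 1.17.1, and the correlation step was tested on simulated data. Intervals have a level of 95% and cover counting error or the sampling of wells on 1 plate only. The floor of 3 counts is 0.254 CPM pooled over the ISX-9 wells and 0.203 CPM over the DMSO wells. A gene without a row on 1 plate was taken as 0 there. Genes were named if they were among the 15 highest or 10 lowest partial correlations of a plate with the same sign after thinning to 2000 reads (ribosomal protein, spike-in, mitochondrial and predicted genes left out), or among up to 4 members of each of 16 lists with the largest value on the ISX-9 plate, or paralogs and neighbours of Neurog3. Other genes named in the text were chosen after their values were seen. The members, lists (188 entries) and limits were chosen with earlier results of these data known. Promoter windows were found for 86 of the 117 ISX-9 genes that rose, and the share of these with a motif was not computed. Alternatives changed the wells, depth, totals, correlation measure, filter and limits. Some genes that the rule names are not reported here.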

Additional observations from a re-analysis of the deposited data

Results flagged for a closer look

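Wells left out for low depth also carried Neurog3. On the ISX-9 plate, 34 of the 94 wells below the limits held a Neurog3 read (36.2%), and the 169 reads gave 1523 CPM over these wells (exact Poisson 95% interval 1302 to 1771, 1299 CPM without the top well). On the DMSO plate, 12 of the 84 wells left out held a read (14.3%), and the 26 reads gave 163 CPM (106 to 239, 121 CPM without the top well). The median depth was 1179.5 reads in the ISX-9 wells left out and 1201.5 reads in the DMSO wells left out. This was picked out because the signal lies in wells outside the main measurement and is above that in the DMSO wells left out. The wells left out stood below the kept wells of the same plate on both plates.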

How the results depend on the processing

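No paired analysis was possible because each treatment has 1 library. Pooled Neurog3 was 3409 CPM on the ISX-9 plate and 1065 CPM on the DMSO plate as the mean of wells, ISX-9 3184 and DMSO 777 CPM without Rn45s, ISX-9 3894 and DMSO 805 CPM without the deepest 5% of wells, and ISX-9 3032 and DMSO 651 CPM in wells of at least 10000 reads. It was ISX-9 3355 and DMSO 1123 CPM with wells thinned to 2000 reads and ISX-9 3254 and DMSO 739 CPM without ribosomal protein genes. Without the highest well of each plate it was ISX-9 2950.2 and DMSO 668 CPM. Wells with a read were 78.6% on the ISX-9 and 53.5% on the DMSO plate among those of at least 10000 reads, and 44.5% of ISX-9 and 26% of DMSO wells after thinning. Wells at 5000 CPM or more were 21.7% on the ISX-9 and 6% on the DMSO plate, and at 20000 CPM or more 3.79% on the ISX-9 and 0.667% on the DMSO plate. The ISX-9 plate was higher under each of these.

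Counts of genes depended much more on the measure. In wells of at least 10000 reads, 225 genes rose and 101 fell on the ISX-9 plate, 30 rose on the DMSO plate and 24 on both. In wells with a Neurog3 read, 201 rose and 149 fell on the ISX-9 plate, 111 rose and 50 fell on the DMSO plate and 67 rose on both. After thinning to 2000 reads, 38 rose and 1 fell on the ISX-9 plate, and without holding depth 14 fell. With Pearson correlations of log2(CPM + 10) or log2(CPM + 100), 37 or 49 genes rose on the DMSO plate, 2 fell under either and 27 or 37 rose on both plates. With genes read in at least 40% of wells, 29 fell on the ISX-9 plate, 5 rose on the DMSO plate and 3 on both. At a limit of 0.2, 363 rose and 235 fell on the ISX-9 plate, 99 rose and 8 fell on the DMSO plate and 65 rose on both. At 0.4, 37 rose and 2 fell on the ISX-9 plate, 1 rose on the DMSO plate and 1 on both. The cause of these shifts was not tested. No named gene past the limit changed sign under any alternative, and 76 of 1033 alternative values on the ISX-9 plate and 83 of 939 on the DMSO plate moved by over 0.1. Genes named by their rank on a plate had to keep their sign there after thinning, so thinning could not reverse them on that plate.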
